A study of Mus musculus with 8 samples.

Results

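Genes that mark thermogenic or white fat cells were followed in single nuclei of whole mouse hearts. They are Ucp1, Cidea, Prdm16, Dio2, Ppargc1b, Adrb3, Lipe, Lep, Adipoq and Retn, chosen by symbol, and all 10 of them were found among the 32285 genes counted in every library. The hearts came from 4 WT and 4 Taz-KO male mice of 9 weeks of age, with no treatment named, and each mouse gave 1 library of nuclear RNA from minced and cryopreserved tissue. Taz encodes tafazzin, the acyltransferase that remodels the mitochondrial lipid cardiolipin, and its loss is a model of Barth syndrome. The labels name the genotype as KO and nothing more, and the allele and strain background are not given in the sources used here. The comparison asks whether these genes differ between genotypes in the fat cells of the heart, and how they are distributed among those cells.

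Fat cells store triglyceride, and brown and beige fat cells also burn it to make heat. Noradrenaline acts on adrenergic receptors of the fat cell, cyclic AMP rises, lipases release fatty acids, and Ucp1 lets protons flow back across the inner mitochondrial membrane without making ATP. White fat cells lack Ucp1 and are known for the hormones they secrete, among them leptin, adiponectin and resistin. In the heart, fat cells lie mainly in the fat around the atria, the large vessels and the surface of the ventricles.

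The stretch before the transcription start is shown for Ucp1 (chr8:83290188-83290347, plus strand) and Dio2 (chr12:90739039-90739198, minus strand), genes known to respond to cyclic AMP, and for the adipokine gene Adipoq (chr16:23146376-23146535, plus strand). The sequences are RefSeq promoter windows on GRCm38.p6, printed 5′ to 3′ and 160 bases long, and capitals mark TGACG, the core of the cyclic AMP response element, with the full palindrome TGACGTCA where it is present.
Ucp1: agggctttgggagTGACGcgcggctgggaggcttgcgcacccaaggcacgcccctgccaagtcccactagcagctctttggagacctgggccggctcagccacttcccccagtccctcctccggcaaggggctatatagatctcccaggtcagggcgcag
Dio2: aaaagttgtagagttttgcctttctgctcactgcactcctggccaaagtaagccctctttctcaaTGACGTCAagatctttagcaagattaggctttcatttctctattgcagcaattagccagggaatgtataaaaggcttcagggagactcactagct
Adipoq: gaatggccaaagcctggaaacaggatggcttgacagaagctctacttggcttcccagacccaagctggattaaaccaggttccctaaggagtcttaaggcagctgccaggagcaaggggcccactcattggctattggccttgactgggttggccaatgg
Windows of 250 bases before the start were found for 7 of the 10 genes and searched on both strands. TGACG was in 2 of the 7, Ucp1 (147 bases before the start) and Dio2 (95 and 92 bases before it, the overlapping strands of 1 palindrome), and TGACGTCA in Dio2 alone. Among the windows of all 27025 genes, 19.8% held TGACG and 1.77% held TGACGTCA. A match is a description of the letters and says nothing of what binds there.

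Libraries held between 20025456 and 348080773 UMIs, and mitochondrial genes took 1.57% to 23.7% of them. Summed over all barcodes, Taz was at 40.8 to 42.0 CPM (UMIs of a gene per 1000000 UMIs outside the mitochondrial genes) in the WT mice and at 22.7 to 31.5 CPM in the Taz-KO mice, without overlap between the genotypes. Taz-KO 4685 and Taz-KO 5301 had few barcodes (3492 and 5571). Of 165854 distinct barcodes, 3295 occurred in more than 1 library. Nothing in the labels names a batch.

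Fat cells were found by 4 genes that are not among the 10. A nucleus counted as an adipocyte-marker nucleus if it had UMIs on at least 2 of Plin1, Cidec, Plin4 and Acvr1c, at least 3 such UMIs, and at least 0.1% of its UMIs on them. The rule found 540 of 151264 nuclei, of which 20 had a barcode that another library also held. The 151264 are more than the paper kept from the same libraries. Most libraries also held more than the paper states were loaded, with 19071 kept in WT 5356 and 32677 in Taz-KO 4910. Some barcodes counted as nuclei may thus not be single nuclei, which was not tested. There were 44, 98, 44 and 30 in WT 4686, 4909, 5355 and 5356, and 194, 112 and 18 in Taz-KO 4910, 5300 and 5301. In Taz-KO 4685 there were 0 of 3378, which allows a share of up to 0.0888%, so this mouse entered no comparison of marker nuclei. The label held against further adipocyte genes. Of 20 general adipocyte genes fixed as a list, 18 were higher and 1 lower in marker nuclei than in the other nuclei of the same mice (edgeR, adjusted p under 0.05), with a median log2 difference of 2.43 against -0.13 over all genes; of all genes tested, 15.5% were higher and 20.5% lower. Markers of cardiomyocytes were also present, with the sum of 6 marker genes at 4859 to 8461 CPM in marker nuclei of a mouse against 43858 to 64642 CPM in its cardiomyocytes. Fibroblast markers, also 6 genes in sum, were nearer to the level of their own type. They were at 354 CPM in marker nuclei of Taz-KO 5301 and 2143 to 5837 CPM in the other mice. In fibroblasts they were at 4782 CPM in Taz-KO 5301 and 6788 to 13346 CPM in the other mice.

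All of the thermogenic genes were most abundant, by their mean level, in the marker nuclei, but not equally confined to them. Ucp1, the uncoupling protein, had a mean of 547 ± 403 CPM (SD, n = 7 mice) in marker nuclei and 2.72 to 7.61 CPM as the mean in each of the 7 other named cell types. Cidea, a lipid droplet protein of brown fat, had 374 ± 143 CPM there and at most 13.8 CPM elsewhere. Dio2, the deiodinase that makes active thyroid hormone inside the cell, had 114 ± 81.3 CPM and at most 7.43 CPM, in fibroblasts. For these genes the lowest mouse in marker nuclei lay above the highest mouse of each other cell type.

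Prdm16 and Ppargc1b behaved otherwise. Prdm16, a transcriptional co-regulator of brown fat identity, had 358 ± 128 CPM in marker nuclei and 323 ± 79.0 CPM (n = 8) in cardiomyocytes, with overlapping mice, and 21.1 to 47.3 CPM in the other types. Ppargc1b, a coactivator of mitochondrial genes, had 1115 ± 459 CPM in marker nuclei and 610 ± 156 CPM in cardiomyocytes, also with overlap, and 208 CPM in pericytes. Marker nuclei thus held only 0.914% of the Prdm16 UMIs of all libraries and 1.38% of the Ppargc1b UMIs.

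Adrb3, the adrenergic receptor that starts lipolysis in rodent fat, was the most restricted of the receptor and lipase genes, with 186 ± 73.8 CPM in marker nuclei and 0.293 to 1.11 CPM elsewhere. Marker nuclei held 36.5% of its UMIs, with a range over the 7 mice of 27.5% to 70.6%. Lipe, the hormone-sensitive lipase, had 741 ± 128 CPM in marker nuclei, 73.3 ± 27.4 CPM in endothelial cells and 18.4 to 36.8 CPM in the other types.

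The adipokine genes were low outside the marker nuclei. Adipoq, which encodes adiponectin, had 167 ± 109 CPM in marker nuclei and 1.23 to 3.29 CPM elsewhere. Retn, which encodes resistin, had 72.9 ± 79.6 CPM against 0.908 to 2.03 CPM. Lep, which encodes leptin, had 22.04 ± 22.3 CPM and 0.0402 to 0.247 CPM, and its range in marker nuclei began at 0 and so overlapped the other types. Among the 7 other types, neighbours in the order of mean level overlapped in their mice for each of the 10 genes, except cardiomyocytes above endothelial cells for Prdm16 and cardiomyocytes above pericytes, and pericytes above macrophages, for Ppargc1b. Nuclei of clusters that got no name are in none of these types. Their means were 120 CPM for Prdm16, 238 CPM for Ppargc1b, 42.6 CPM for Lipe and 2.09 CPM for Retn. For the remaining genes their means lay within the ranges given for the other types.

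**Figure D1:**
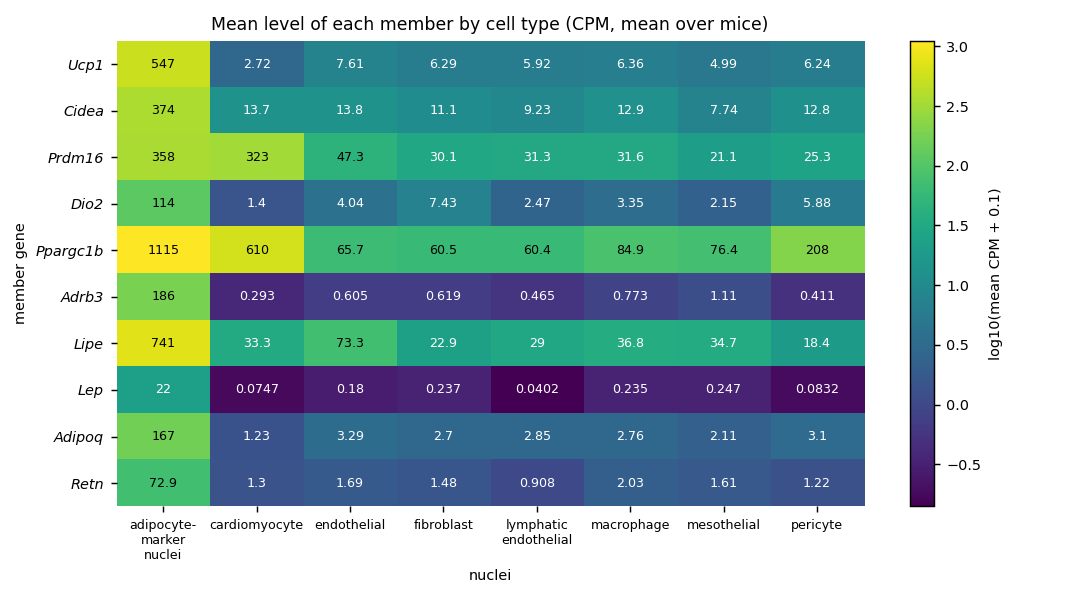
Mean CPM of each gene (rows) in adipocyte-marker nuclei (7 mice) and in the 7 other named cell types (8 mice), printed in each square and coloured on a log10 scale after adding 0.1. Adrb3 falls from 186 CPM in marker nuclei to 1.11 CPM or less elsewhere, while Prdm16 (323 CPM) and Ppargc1b (610 CPM) are also high in cardiomyocytes.

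A test against all other nuclei of the same mouse used edgeR with the mouse as a block (n = 7 mice). The other nuclei include those of the cluster named adipocyte (860 nuclei in all) that missed the marker rule. In WT 5355 that cluster held 108 nuclei, and 43 of them were marker nuclei. The log2 differences below were taken with the missed nuclei on the other side. All 9 genes that passed the filter on low counts were higher in marker nuclei, where 15.5% of the 15732 genes tested were higher. This count needs care, since Ucp1, Adrb3, Adipoq and Retn passed the filter through the marker nuclei alone. The log2 difference was 7.61 ± 0.47 (SE) for Adrb3, 6.13 ± 0.52 for Ucp1, 5.91 ± 0.72 for Adipoq, 4.90 ± 0.88 for Retn, 4.67 ± 0.36 for Dio2, 4.601 ± 0.29 for Cidea and 4.18 ± 0.14 for Lipe, with adjusted p of 0.00541 or less. Ppargc1b differed by 1.71 ± 0.30 (edgeR adjusted p = 0.00249). For Prdm16 the difference was 1.19 ± 0.35 with an adjusted p of 0.0377, and its call was lost in 6 of 7 fits that left out 1 mouse, with adjusted p of 0.0704 to 0.108; it was kept without WT 5356. Tested without the filter, an alternative chosen after seeing the data, Lep also differed, by 6.999 ± 0.36 (adjusted p = 2.7e-32), and Prdm16 did not pass (adjusted p = 0.0795). The Lep value rests on 82 UMIs in the marker nuclei of all mice, with 0 in WT 5355 and 2 in WT 5356. Its small SE and p therefore need care.

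Between genotypes, 0 of the 9 genes tested passed in the marker nuclei, where 0% of all 8040 genes tested did (edgeR, n = 4 and 3 mice). Every one of the 10 genes had overlapping WT and Taz-KO mice. Within each genotype the mice differed by several fold in Ucp1, Dio2 and Retn, and WT 5356 had the lowest level of the 5 thermogenic genes and the highest of Adipoq and Retn, but not of Lep, among the WT mice.

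The levels of Ucp1 were 191, 807, 1100 and 160 CPM for WT 4686, 4909, 5355 and 5356, against 218, 375 and 978 CPM for Taz-KO 4910, 5300 and 5301. The means were 564 ± 465 (SD, n = 4) and 524 ± 402 (n = 3), and edgeR gave a log2 fold change of -0.11 ± 0.70 (SE, adjusted p = 1.00). Of the Taz-KO mice, 4910 and 5300 lay between a low and a high pair of WT mice and 5301, with 18 nuclei, lay within the high pair. The log2 fold change was -0.94 without Taz-KO 5301, 0.42 without WT 5355 and 0.81 in the adipocyte cluster, so its direction turned with the mice and nuclei used.

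Cidea levels, with mice in the same order, were 496, 389, 362 and 92.6 CPM for WT against 539, 382 and 354 CPM for Taz-KO (log2 fold change 0.38 ± 0.41, edgeR adjusted p = 0.9497). Prdm16 was at 527, 303, 409 and 126 CPM in WT and at 454, 346 and 337 CPM in Taz-KO (0.19 ± 0.37, edgeR adjusted p = 0.985). In both genes WT 5356 was the lowest of the 7 mice. The other WT mice lay within the range of the Taz-KO mice for Cidea, and above, within and below that range for Prdm16.

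Dio2 was at 51.2, 95.1, 129 and 37.9 CPM in WT and at 70.6, 136 and 278 CPM in Taz-KO. Its log2 fold change of 0.87 ± 0.50 (edgeR adjusted p = 0.9002) was 0.31 without Taz-KO 5301. Ppargc1b was at 1033, 1107, 1669 and 324 CPM in WT and at 1089, 931 and 1653 CPM in Taz-KO (0.29 ± 0.44, edgeR adjusted p = 0.976). Again WT 5356 was lowest, and the highest WT and Taz-KO mice were alike in level.

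For the receptor Adrb3, WT mice had 216, 105, 254 and 303 CPM and Taz-KO mice 119, 162 and 143 CPM (log2 fold change -0.61 ± 0.36, edgeR adjusted p = 0.9002). WT 4909 lay below all Taz-KO mice and the other WT mice lay above them. For the lipase Lipe, WT mice had 586, 821, 686 and 931 CPM and Taz-KO mice 788, 585 and 793 CPM (-0.05 ± 0.28, edgeR adjusted p = 1.00), with the narrowest spread of the 10 genes relative to its mean.

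Adipoq was at 86.6, 164, 225 and 387 CPM in WT and at 117, 95.6 and 92.8 CPM in Taz-KO. Its log2 fold change of -1.02 ± 0.45 had an unadjusted p of 0.0435 and an edgeR adjusted p of 0.820. The Taz-KO mice were close to each other and to WT 4686, and below the other WT mice. Retn was at 21.6, 21.9, 51.8 and 223 CPM in WT and at 31.4, 17.2 and 143 CPM in Taz-KO (-0.65 ± 0.98, edgeR adjusted p = 0.976). It was -1.37 without Taz-KO 5301 and 0.50 without WT 5356, so that 1 mouse decided its direction. Lep was at 63.0, 16.2, 0 and 8.42 CPM in WT and at 13.1, 11.5 and 42.2 CPM in Taz-KO and did not pass the filter on low counts. The 0 UMIs in WT 5355 allow up to 7.76 CPM. The 42.2 CPM of Taz-KO 5301 are 5 UMIs of 1 nucleus.

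**Figure D2:**
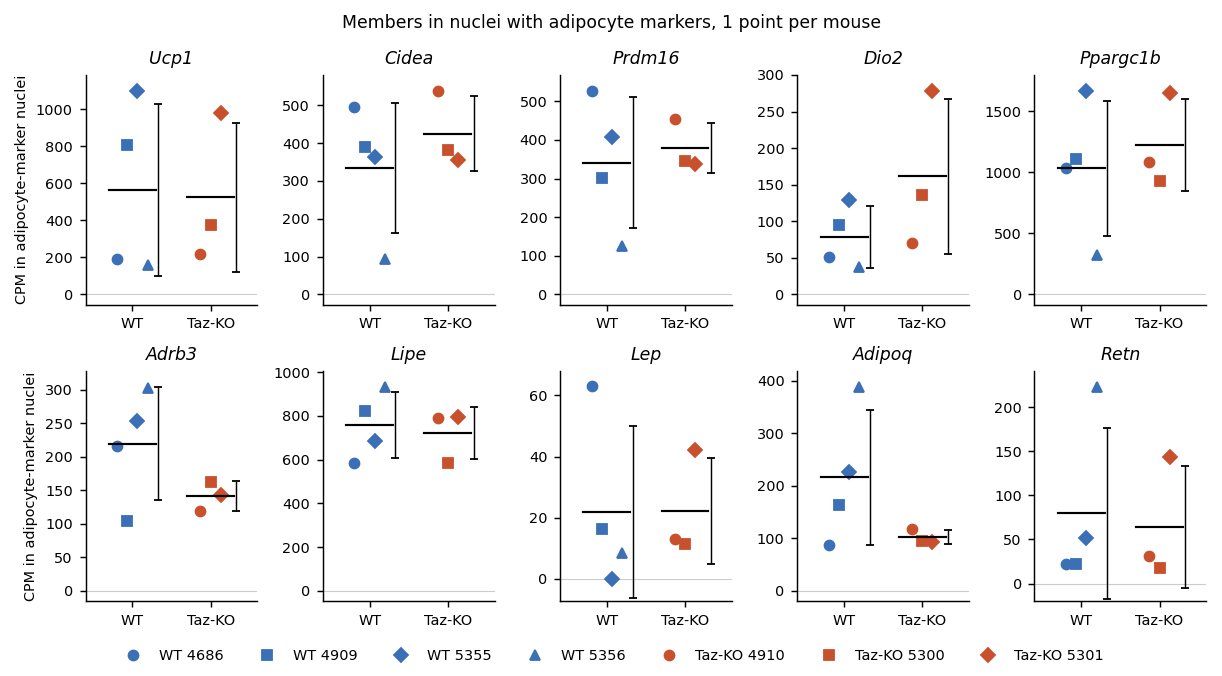
CPM of each gene in adipocyte-marker nuclei (vertical axis, linear), 1 point per mouse, for 4 WT (blue) and 3 Taz-KO (orange-red) mice, with the mean as a line and the SD as a bar beside it. WT and Taz-KO points overlap in each panel, and WT 5356 (triangle) is lowest for Cidea (92.6 CPM) and highest for Retn (223 CPM).

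Of the 8040 genes, 483 had an unadjusted p under 0.05 in edgeR. DESeq2 called 10 genes, none of the 10 followed here. With the adipocyte cluster in place of the marker nuclei, a larger set of 860 nuclei, edgeR called 667 of 12272 genes (5.44%), and Cidea was the 1 of the 10 among them (log2 fold change 1.23, adjusted p = 0.0412). Nuclei of that cluster held a mean of 18375 to 22480 UMIs in WT 4686, 4909 and 5355, 7647 in WT 5356, and 5189 to 6824 in the Taz-KO mice, and the part of this in the calls was not tested.

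In the edgeR fit of the marker nuclei, the related lists held no called gene. Of 12 genes of fatty acid synthesis, all 12 had a positive log2 fold change, with a median of 1.03 against -0.01 over all genes; the smallest p belonged to Elovl6, a fatty acid elongase, at 1.90 ± 0.31 (edgeR adjusted p = 0.181), and Me1, malic enzyme, at 1.69 ± 0.36 (adjusted p = 0.383). Summed over the list, these genes were at 2348 to 4956 CPM in WT mice and 7116 to 10069.5 CPM in Taz-KO mice. The list holds Acly, Fasn, Elovl6 and Insig1, which the paper reports as upregulated in Taz-KO adipocytes of these mice. Their direction was thus known beforehand, and the count of 12 is no independent support. For 8 tested thermogenic genes outside the 10 the median was 0.33, with Nrg4 at 0.39 and Ffar4 at 0.56. For 11 thermogenic genes that cardiomyocytes also express it was 0.04, with Ppargc1a at 0.64 and Cox7a1 at -1.002.

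Only 3 of 9 white adipocyte genes were tested, with Nnat at -1.43 ± 0.37 and Npr3, the clearance receptor of natriuretic peptides, at 0.97 ± 0.30 (edgeR adjusted p = 0.535 and 0.626). The median was 0.07 for 20 general adipocyte genes, with Pparg, the master regulator of fat cells, at 0.75 and Gpd1 at 0.74. It was 0.16 for 12 genes of lipolysis, with Aqp7, a glycerol channel, at -0.76 and G0s2, an inhibitor of the first lipase, at 0.60. It was 0.06 for 6 secreted factors, with Angptl4 at -0.96 and Itih5 at -0.71, and 0.14 for 12 receptors and partners of the 10 genes, with Cdh13 at -0.38 and Esrra at 0.37.

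Nuclei with adipocyte markers made up 0.216%, 0.375%, 0.227% and 0.157% of the nuclei in WT 4686, 4909, 5355 and 5356, and 0%, 0.594%, 0.422% and 0.478% in Taz-KO 4685, 4910, 5300 and 5301. The base of these shares is all barcodes kept, some of which may not be single nuclei. The means of 0.244 ± 0.0927% and 0.373 ± 0.259% (SD, n = 4 each) did not differ beyond the spread (exact two-sided permutation test, p = 0.371). By this rule Taz-KO 4685 was below every WT mouse and the other Taz-KO mice above every WT mouse. With at least 3 of 4 markers, Taz-KO 5300 had 94 of 26534 nuclei, a lower share than the 95 of 26114 in WT 4909. Taz-KO 4685 held 3 nuclei of the adipocyte cluster. Without Taz-KO 4685 the exact permutation p was 0.0571, the smallest that 4 against 3 mice allow. Without any other single mouse the exact permutation p was 0.286 to 0.686. With the other selections of nuclei, in all mice, it was 0.314 to 0.571.

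The share of marker nuclei with a UMI of Ucp1 was 29.5%, 65.3%, 59.1% and 10.0% in WT 4686, 4909, 5355 and 5356, and 40.2%, 42.0% and 50.0% in Taz-KO 4910, 5300 and 5301. The Wilson 95% intervals, which cover counting error alone, were 3.46% to 25.6% for WT 5356 and 55.5% to 74.0% for WT 4909, the mice with the lowest and the highest share. Each nucleus was also thinned to 1000 UMIs in a single random draw. Shallower nuclei were left out, which kept 17 of 18 in Taz-KO 5301 and all in the other mice. The shares were then 6.82%, 42.9%, 45.5% and 10.0% in WT and 11.9%, 23.2% and 52.9% in Taz-KO. Those means, 26.3 ± 20.7% (SD, n = 4) and 29.3 ± 21.2% (n = 3), gave an exact permutation p of 0.8. In fibroblasts of the 8 mice, which should lack Ucp1, the thinned share was 0% to 1.44%, with 0% in WT 5356 and Taz-KO 4685. In cardiomyocytes it was 0% to 0.7098%. Before thinning, marker nuclei were deeper than the other nuclei, with medians per mouse of 4549.5 to 9794.5 against 2399 to 6385 UMIs.

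Sums over all barcodes of a library mix the number of fat cells with their level, and fewer fat cells cannot be told apart from less RNA per fat cell. Here too none of the 10 genes passed, where 5.9% of 22486 genes did (edgeR, n = 4 and 4 mice; DESeq2 also 0 of the 10). Ucp1 was at 4.08, 13.9, 20.1 and 0.631 CPM in WT 4686, 4909, 5355 and 5356, and at 0.796, 9.64, 8.56 and 10.6 CPM in Taz-KO 4685, 4910, 5300 and 5301. The genotypes overlapped throughout, with WT mice at both ends (log2 fold change -0.40 ± 0.93, edgeR adjusted p = 0.873). The smallest p were those of Lipe (-0.60 ± 0.24, edgeR adjusted p = 0.186) and Retn (0.68 ± 0.34, adjusted p = 0.288). Summed over all barcodes of all libraries, most UMIs of the 10 genes lay outside the marker nuclei, which held 17.8% of all Ucp1 UMIs, 9.09% of Cidea and 14.6% of Adipoq. In Taz-KO 5301 the marker nuclei held 55.5% of the Ucp1 UMIs. The larger adipocyte cluster held 18.4% (Taz-KO 4910) to 68.9% (Taz-KO 5301) of them in the mice with marker nuclei. UMIs outside the marker nuclei are therefore not all outside fat cells.

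In cardiomyocytes, 1 of 9 tested genes was called, where 15.4% of 18468 genes were. That gene was Lipe. It was at 22.9, 40.0, 60.9 and 54.3 CPM in WT 4686, 4909, 5355 and 5356 and at 16.8, 27.2, 27.0 and 17.5 CPM in Taz-KO 4685, 4910, 5300 and 5301, with a log2 fold change of -1.13 ± 0.30 (edgeR adjusted p = 0.0294). WT 4686 fell among the Taz-KO mice, and the other WT mice lay above them. The call was lost without any one of Taz-KO 4685, Taz-KO 5300, WT 5355 and WT 5356 (adjusted p of 0.0695 to 0.0762) and without Taz-KO 4685 and 5301 together (-0.93, adjusted p = 0.148). Cidea had -0.87 ± 0.30 in the same nuclei (edgeR adjusted p = 0.0784, DESeq2 0.0366). DESeq2 called both genes, 2 of the 9 tested, where it called 19.3% of all genes. Cidea had like low means in every cell type other than the marker nuclei, 7.74 to 13.8 CPM.

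Prdm16 and Ppargc1b, high in cardiomyocytes of both genotypes, showed no call there. Prdm16 ranged from 272 to 466 CPM in WT and from 205 to 378 CPM in Taz-KO cardiomyocytes (-0.22 ± 0.30, edgeR adjusted p = 0.702). For Ppargc1b the ranges were 523 to 635 and 483 to 979 CPM (0.13 ± 0.29, edgeR adjusted p = 0.818), with Taz-KO 5301 alone above 635 CPM. In the other cell types no member of the list was called. The share of all genes called was 0.44% in endothelial cells, 0.383% in fibroblasts, 0.0954% in lymphatic endothelial cells, 0.429% in macrophages, 0.0502% in mesothelial cells and 0.143% in pericytes.

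**Figure D3:**
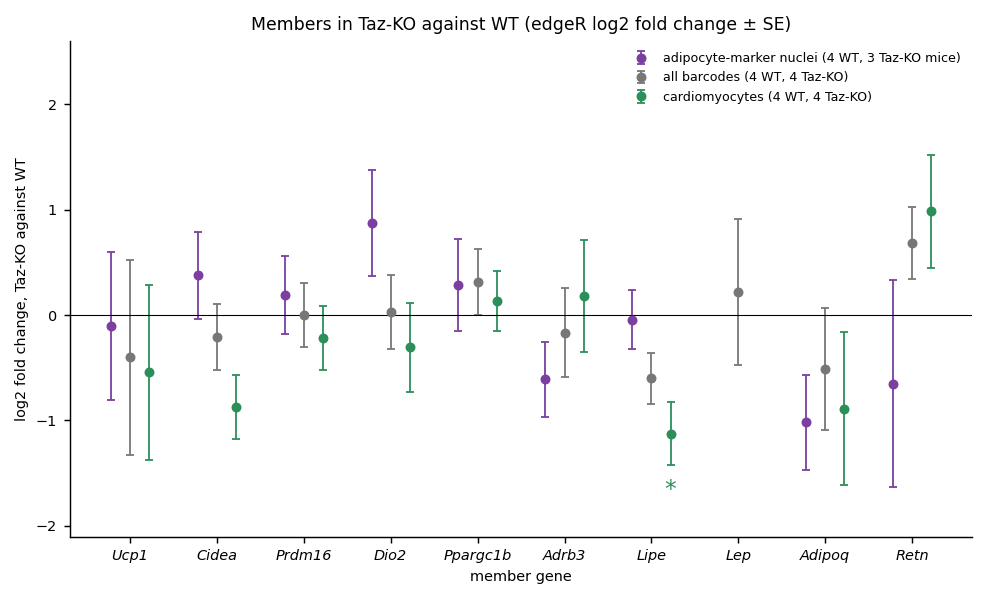
Log2 fold change of each gene in Taz-KO against WT mice, with its SE as a bar, from edgeR in adipocyte-marker nuclei (purple, 4 against 3 mice), all barcodes (grey, 4 against 4) and cardiomyocytes (green, 4 against 4); genes that did not pass the filter have no point. The star marks an adjusted p below 0.05, which Lipe alone reached, in cardiomyocytes (-1.13).

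Within the marker nuclei of a mouse, the 5 thermogenic genes rose with a score of other thermogenic genes. Of the adipokine genes only Adipoq passed the filter on low counts, and it did not pass the test. The nuclei of each of 6 mice with at least 20 marker nuclei were split at that mouse's median share of UMIs on 14 thermogenic genes outside the 10 (Elovl3, Otop1, Pank1, Gk, Ebf2, Kcnk3, Nrg4 and others), into 261 high-scoring and 261 low-scoring nuclei. These are ranges of a score and not cell types, and 171 of the 522 nuclei lay between the tertiles of the score. Ucp1, Cidea, Ppargc1b, Dio2 and Prdm16 rose in the high-scoring nuclei, 5 of the 8 genes tested, and Lipe, Adrb3 and Adipoq did not pass the test, where 6.91% of 5109 genes rose (edgeR, mouse as a block). Ucp1 and Cidea reached the level of the filter in the high-scoring nuclei of all 6 mice and in the low-scoring nuclei of 5, and Dio2 reached it in enough mice in neither set alone. Since 6 mice were needed, Ucp1 and Cidea would not have passed by the low-scoring nuclei alone. They passed through the nuclei where they are high, so the count of 5 of 8 needs care.

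Ucp1 in the high-scoring against the low-scoring nuclei was at 304 and 78.4 CPM in WT 4686, 1330 and 310 in WT 4909, 1885 and 244 in WT 5355, 272 and 0 in WT 5356, 319 and 99.2 in Taz-KO 4910 and 624 and 90.0 in Taz-KO 5300. It was higher in 6 of 6 mice, with a log2 difference of 2.35 ± 0.21 (SE, edgeR adjusted p = 1.21e-06). In WT 5356, all 38 Ucp1 UMIs fell in 3 high-scoring nuclei, 1 of which held 16 of them.

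Cidea was at 699 and 294 CPM in WT 4686, 580 and 208 in WT 4909, 531 and 179 in WT 5355, 158 and 0 in WT 5356, 709 and 339 in Taz-KO 4910 and 556 and 184 in Taz-KO 5300, higher in 6 of 6 mice (1.43 ± 0.17, edgeR adjusted p = 9.06e-07). Ppargc1b was also higher in 6 of 6, with 430 to 2639 CPM in high-scoring and 174 to 611 CPM in low-scoring nuclei (1.65 ± 0.13, edgeR adjusted p = 1.79e-10). Dio2, at 35.8 to 223 against 19.6 to 74.2 CPM, and Prdm16, at 107 to 723 against 152 to 333 CPM, were higher in 5 of 6 mice (1.42 ± 0.24 and 0.98 ± 0.18, edgeR adjusted p = 0.000169 and 0.00101). The exception for both was WT 5356. In this mouse all 22 Cidea UMIs lay in 4 high-scoring nuclei.

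The receptor and the lipase did not pass the test between the sets of nuclei. Adrb3 was at 66.4 to 301 CPM in high-scoring and 130 to 307 CPM in low-scoring nuclei and higher in 2 of 6 mice (-0.25 ± 0.16, edgeR adjusted p = 0.350). Lipe was at 628 to 1017 and 510 to 807 CPM and higher in 6 of 6 mice, by a small difference that did not pass (0.18 ± 0.12, edgeR adjusted p = 0.364). A p that misses the threshold does not show equal levels.

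Among the adipokines, Adipoq was higher in 3 of 6 mice (-0.06 ± 0.16, edgeR adjusted p = 0.882). Retn, which did not pass the filter, was at 7.90 and 35.3 CPM in WT 4686, 1.95 and 40.8 in WT 4909, 0 and 108 in WT 5355, 236 and 204 in WT 5356, 19.4 and 45.4 in Taz-KO 4910 and 0 and 36.8 in Taz-KO 5300. It was lower in the high-scoring nuclei of 5 of 6 mice, with WT 5356 again the exception. Tested without the filter, a choice made after seeing the data, Retn had a log2 difference of -1.49 ± 0.30 (edgeR adjusted p = 0.0001025) and Lep one of -1.09 ± 0.42 (adjusted p = 0.154). Lep was not higher in the high-scoring nuclei of any mouse, and WT 5355 had no Lep UMI in either set.

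**Figure D4:**
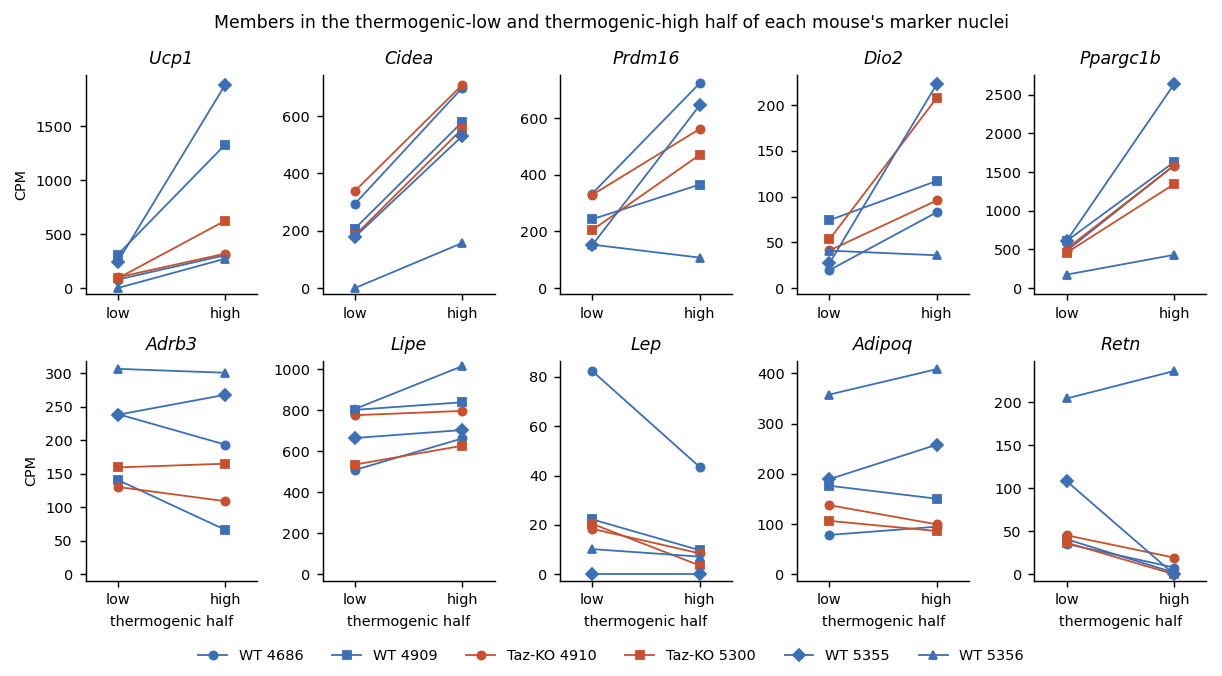
CPM of each gene (vertical axis, linear) in the low-scoring and high-scoring nuclei of the same mouse, joined by a line, for 4 WT (blue) and 2 Taz-KO (orange-red) mice; the score uses 14 other thermogenic genes. Ucp1, Cidea and Ppargc1b rise in each of the 6 mice, and Retn is lower in the high-scoring nuclei of each mouse other than WT 5356 (204 to 236 CPM).

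The split has limits beside it. Without the mouse as a block none of the 10 genes passed (adjusted p of 0.0987 to 0.172 for the 5 called), and with the score taken from nuclei thinned to equal depth Dio2 did not pass (0.50, adjusted p = 0.114). That fit also lost WT 5356, which then had 9 high-scoring nuclei; without WT 5356 and with the score unthinned Dio2 was at 1.49 (adjusted p = 6.49e-06). High-scoring nuclei had fewer UMIs of the 6 cardiomyocyte markers in 6 of 6 mice (3373 to 8255 against 6980 to 10053.5 CPM), fewer of the lymphatic endothelial (21.5 to 172 against 61.3 to 188 CPM), mesothelial (0 to 108 against 10.2 to 135 CPM) and pericyte markers (201 to 580 against 255 to 625 CPM) in 6 of 6 mice, fewer of the macrophage, fibroblast, endothelial and Schwann markers in 5 of 6 mice, and somewhat more UMIs in all (medians of 4739 to 11488.5 against 4102.5 to 9489), and the part of these in the differences was not tested.

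Other lists were read in the same fit, in which 6.91% of all genes were higher and 6.07% lower. Of 11 thermogenic genes that cardiomyocytes also express, 8 were higher and 0 lower in the high-scoring nuclei, with a median log2 difference of 0.74 against -0.01 over all genes, among them Ppara at 1.49, Esrrg at 1.302 and Pdk4 at 1.55. Of 3 tested white adipocyte genes 2 were lower, Slc7a10, an amino acid transporter of white fat, at -2.35 (edgeR adjusted p = 0.00125) and Nnat at -2.82 (adjusted p = 0.00134). The 18 general adipocyte genes divided into 8 higher and 2 lower, the 12 genes of lipolysis into 3 higher and 1 lower, the 10 of fatty acid synthesis into 4 higher and 0 lower, the 6 secreted factors into 2 higher and 1 lower (Cfd, adipsin, at -1.49), and the 10 receptors and partners into 1 higher (Esrra, at 0.77) and 1 lower (Cdh13, a receptor of adiponectin, at -0.87). Of the 14 genes of the score, all 6 that were tested were higher, which the split itself fixed.

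In the 7 mice, nuclei with a Ucp1 UMI had a Cidea UMI in 83.0% to 100% of cases, against 3.70% to 61.3% of the nuclei without one, and the share was higher in 7 of 7 mice. The same held in 7 of 7 mice for Prdm16 (medians over mice of 91.0% and 66.7%), Dio2 (41.0% and 17.6%) and Ppargc1b (100% and 70.8%). For Lipe the share was higher in 6 and lower in 1 of 7 mice (medians of 100% and 90.5%). Retn went the other way in 7 of 7 mice, with a median of 2.56% of the nuclei with Ucp1 and 38.2% of those without. Adrb3 and Adipoq were each higher in 3 and lower in 4 mice, and Lep was lower in 5, higher in 1 and absent in 1.

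Nuclei with Ucp1 had the higher median UMI count in 7 of 7 mice (4751 to 10312 against 4127 to 9583), and more UMIs raise the chance of seeing any gene. The part of depth in these shares was not tested. WT 5356 had 3 and Taz-KO 5301 had 9 nuclei with Ucp1, so their shares are coarse. Shares of cells are descriptions here and carry no test.

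**Figure D5:**
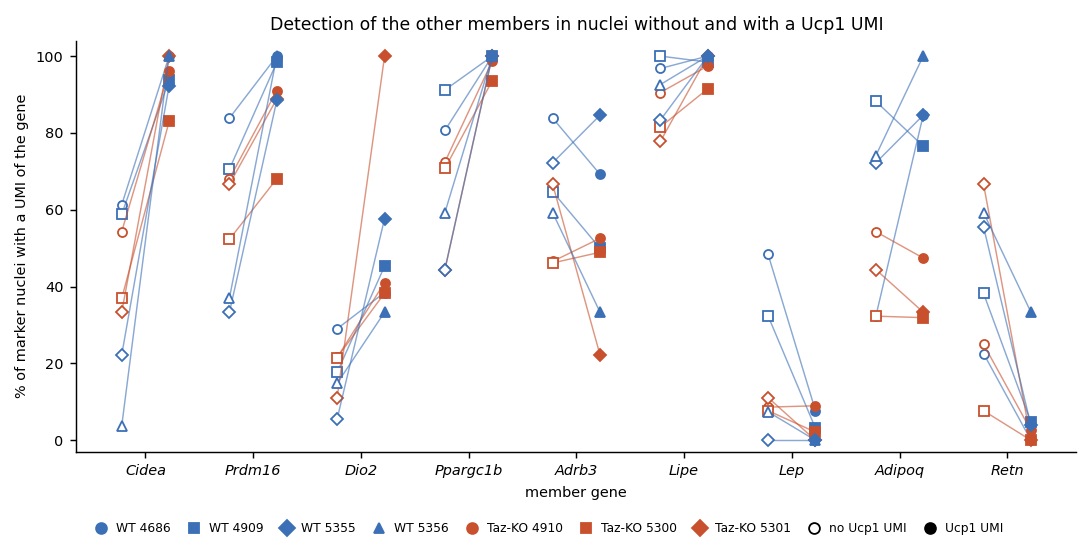
Percent of adipocyte-marker nuclei with at least 1 UMI of each gene (vertical axis), in nuclei without (open) and with (filled) a Ucp1 UMI, 1 pair of joined points per mouse for 4 WT (blue) and 3 Taz-KO (orange-red) mice. Cidea rises from 3.70% to 61.3% without Ucp1 to 83.0% to 100% with it, and Retn falls in each of the 7 mice.

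Likeness of pattern was measured by Pearson's r of log2(CPM + 1) over 63 pairs of a mouse and a cell type, among 12683 genes. Pairs of 1 mouse share a library, its depth and its free RNA, and 7 of the 63 pairs are the marker nuclei, so the values describe and carry no p. Acvr1c, Cidec and Plin1, which appear among the neighbours, are genes that chose the marker nuclei, so their high level there was fixed by the selection and their likeness is no finding. Closest to Ucp1 were Pck1 (r = 0.953), Adipoq (0.919) and Clstn3 (0.915), and closest to Cidea were Car3 (0.912), Gpd1 (0.907) and Ucp1 (0.898). Adrb3 was nearest to Acvr1c (0.974), Lgals12 (0.970) and Gm13544 (0.967). Dio2 was nearest to Cidec (0.882), Cyp2e1 (0.860) and Plin1 (0.857). The adipokine genes Adipoq and Retn were nearest to genes of the same few, Pck1 (0.958 and 0.919), Cyp2e1 (0.944 and 0.924) and Plin1 (0.937 and 0.936).

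Prdm16 and Ppargc1b, the genes also high in cardiomyocytes, had other neighbours, as did Lipe and Lep. Prdm16 was nearest to Pank1 (0.925), Esrrg (0.919) and Acacb (0.910), and Ppargc1b to Chchd3 (0.936), Cox10 (0.932) and Ppara (0.926). Lipe was nearest to Gpd2 (0.917), Adipor2 (0.904) and Atl2 (0.9002), and Lep to Gm45470 (0.914), BC035947 (0.893) and Mc2r (0.872), the last on few UMIs, since all libraries together held 261 Lep UMIs.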

How the data were processed

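The files that the authors deposited hold raw counts of UMIs, from Cell Ranger 6.0.1 (mm10, introns included), without their later correction for ambient RNA or removal of doublets. Here mitochondrial genes were dropped, barcodes needed 800 UMIs and 250 genes, and the highest scores against artificial doublets were removed, up to 10% of a library. Nuclei were integrated with Harmony's algorithm and clustered by Leiden (python-igraph 0.11.9, Python 3.11.15) without the 10 genes as variable genes, and clusters were named from marker lists by a rule set after the scores were seen. Sums per mouse and class were fitted in edgeR 4.0.16 under R 4.3.3 (TMM, filterByExpr, quasi-likelihood F test, Benjamini-Hochberg over all genes tested), with DESeq2 1.42.0 as an alternative, for mice with at least 10 nuclei; the mouse was a block where both classes came from 1 library. Shares were compared by exact permutation tests. The fits were tested on simulated data. Each mouse gave 1 library, and litters are not named. In each related list the 2 genes with the smallest p between genotypes were named; those named in other comparisons were chosen after their values were seen. The 10 genes and all lists were chosen with earlier results of these data known.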

Additional observations from a re-analysis of the deposited data

Results flagged for a closer look

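In 53 groups of 4 mice tested for a single distant value, 2 values stood apart, where chance gives about 1 in 20 groups, or 2.65. Both were those of WT 5356. Prdm16 over all barcodes was at 241 CPM in this mouse against 128 to 143 CPM in the other WT mice, and Retn in marker nuclei was at 223 CPM against 21.6 to 51.8 CPM. This mouse also had the lowest Cidea, Prdm16 and Ppargc1b and the highest Adipoq of the 7 mice in its marker nuclei, which number 30.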

How the results depend on the processing

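No paired analysis of WT and Taz-KO mice was possible because litters and batches are not named, so no block joins the genotypes. In the comparison of high-scoring and low-scoring nuclei the mouse was the block; without that block, 0 of the 10 genes and 3 genes in all were called, and Adipoq was at 0.076. With a thinned score, which also left 5 mice in place of 6 since WT 5356 fell to 9 high-scoring nuclei, 389 genes were called there and Lipe was at -0.013 (0.16 without WT 5356 and unthinned); Adipoq was at 0.013 between the upper and lower tertiles, and Adrb3 at 0.037 with a score that included cardiomyocyte genes.

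In marker nuclei between genotypes, genes called numbered 10 with DESeq2, 90 with no filter on low counts, 4 at 0.05% of UMIs on the markers, 8 in mice with at least 20 nuclei and 667 in the adipocyte cluster (5.44% of genes tested), where 1 of the 10 genes was called. Directions turned for Ucp1 (0.10 at 0.05% of UMIs, 0.81 in the cluster), Adrb3 (0.13 in the cluster), Retn (0.17 in the cluster), Ppargc1b (-0.025 in mice with at least 20 nuclei) and Lipe (0.066 with 3 markers, 0.070 at 0.2%, 0.10 at 0.05% and 0.46 in the cluster). The difference in the share of nuclei with Ucp1, 3.05 percentage points, was -0.910 with 3 markers and -2.63 with doublets kept. Each of these settings drew its own random thinning, so the values also carry the spread of the draw. With doublets kept, Taz-KO 5301 had the same 18 marker nuclei. The Taz-KO mean was then 22.4 ± 7.33% (SD, n = 3), against 29.3 ± 21.2% in the main draw. The cause was not tested for any of these.

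Over all barcodes DESeq2 called 2629 genes. In cardiomyocytes it called 2 of the 9 genes tested, where it called 19.3% of all genes, and without the 2 libraries of few barcodes, chosen after seeing the data, edgeR called 0 of the 9, where it called 1912 of 19532 genes. DESeq2 called 317 genes in endothelial cells, 362 in fibroblasts, 23 in lymphatic endothelial cells, 341 in macrophages, 38 in mesothelial cells and 40 in pericytes; with no filter edgeR called 140, 105, 132, 76 and 116 in the same order without fibroblasts.

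With 1 mouse left out, genes called ranged from 0 to 8 in marker nuclei, 553 to 1410 over all barcodes, 1916 to 2701 in cardiomyocytes (0 to 2 of the 10 genes), 12 to 157 in endothelial cells, 7 to 138 in fibroblasts, 4 to 43 in lymphatic endothelial cells, 2 to 288 in macrophages, 0 to 33 in mesothelial cells, 3 to 76 in pericytes and 409 to 891 between high-scoring and low-scoring nuclei. The difference in the share with Ucp1 ranged from -8.75 to 11.8 percentage points. Log2 fold changes between genotypes in marker nuclei ranged from -0.94 to 0.42 for Ucp1, -1.37 to 0.50 for Retn, -0.025 to 0.61 for Ppargc1b, -0.072 to 0.46 for Prdm16 and -0.15 to 0.11 for Lipe; over all barcodes Ucp1 ranged from -0.81 to 0.20, and Adipoq between the scored nuclei from -0.17 to 0.055.

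Results on single genes kept their direction and side of the threshold in 411 settings, 18 lost and 3 gained a call, and 25 turned direction. The number of nuclei limits the comparisons of marker nuclei, since 4 of 7 mice had 44 or fewer and Taz-KO 5301 had 18.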
